A study of Mus musculus with 15 samples.

Results

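The proteasome genes were examined in RNA-seq libraries of mouse hepatocytes sorted by DNA content. They were taken as the gene symbols that begin with Psma to Psmg followed by a digit, without pseudogene symbols, and with at least 10 counts in at least 3 of the 15 libraries. Of 55984 gene symbols in the count table, 56 had such a name, 5 of these were pseudogene symbols, and 50 of the remaining 51 met the count minimum. Just outside the minimum was Psmb11, the catalytic subunit of the thymus proteasome, which reached 10 counts in 2 libraries, with 10 in the 2n-whole and 24 in the 4n-bottom library of mouse 1. Just inside it was Psmc3ip, with 10 or more counts in 7 libraries and none in 2 libraries. Psmc3ip, which encodes a partner of meiotic recombinases, and Psme3ip1, which encodes a protein that binds the activator PSME3, encode no part of the proteasome, so that 48 of the 50 genes encode subunits or direct partners.

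All libraries came from hepatocytes of adult wild-type male C57BL/6JJcl mice, without further treatment, that were stained with the DNA dye Hoechst and sorted. The 2n-whole population held diploid cells and the 4n-whole population all tetraploid cells, whereas 4n-top and 4n-bottom were tetraploid cells with a higher and a lower peak height of the Hoechst signal, enriched for mononucleated and binucleated cells, respectively. Neither fraction is pure, since each still holds cells of the other kind, and by the study's counts 4n-top was less pure than 4n-bottom. Mice 1 to 4 gave 1 library each of 2n-whole, 4n-whole and 4n-bottom cells, and mice 2 to 4 also 1 each of 4n-top cells. The study left out the 4n-top sample of mouse 1 for poor RNA quality, and it was not analysed here. The libraries held 22049498 to 42096421 counts.

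The proteasome degrades proteins that carry ubiquitin chains. Its 20S core is a stack of rings built of alpha subunits, which gate the chamber, and beta subunits, of which Psmb5, Psmb6 and Psmb7 cut proteins. The 19S particle on the ends of the core recognises the ubiquitin and unfolds the substrate with a ring of ATPases. Interferon induces Psmb8, Psmb9 and Psmb10, which replace the standard catalytic subunits in newly built cores, giving the immunoproteasome that produces peptides for MHC class I. In hepatocytes, as elsewhere, transcription factors of the NRF1 family, encoded by Nfe2l1 and Nfe2l2, are known to drive the subunit genes together.

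The starts of the catalytic subunit genes, without that of Psmb9, are shown because the standard and the induced subunits of the same position are compared below, and Psmd9 because it differed between populations. Each sequence is the 250 bases before the start of the canonical transcript in GENCODE M39 on GRCm39, written in the direction of transcription. Capitals mark the letters TGACNNNGC, the core of the antioxidant response element that NRF1 family factors bind, in Psmd9 also GAAANNGAA, a short form of the interferon response element, and in Psmb7 ATTGG, which is CCAAT, the box bound by NF-Y, on the opposite strand. The windows lie at chr14:54855482-54855731 (minus strand), chr11:70415933-70416182 (plus strand), chr2:38534100-38534349 (minus strand), chr17:34416440-34416689 (plus strand), chr8:106665078-106665327 (minus strand) and chr5:123366003-123366252 (plus strand), in the order given.
Psmb5: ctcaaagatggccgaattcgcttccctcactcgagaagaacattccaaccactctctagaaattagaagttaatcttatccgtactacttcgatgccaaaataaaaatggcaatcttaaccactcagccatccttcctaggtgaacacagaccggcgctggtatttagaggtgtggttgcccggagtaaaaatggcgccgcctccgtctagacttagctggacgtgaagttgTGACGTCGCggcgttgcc
Psmb6: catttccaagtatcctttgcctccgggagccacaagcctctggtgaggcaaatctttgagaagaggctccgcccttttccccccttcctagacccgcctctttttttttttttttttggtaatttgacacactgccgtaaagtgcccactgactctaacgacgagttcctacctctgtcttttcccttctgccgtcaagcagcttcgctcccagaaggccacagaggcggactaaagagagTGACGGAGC
Psmb7: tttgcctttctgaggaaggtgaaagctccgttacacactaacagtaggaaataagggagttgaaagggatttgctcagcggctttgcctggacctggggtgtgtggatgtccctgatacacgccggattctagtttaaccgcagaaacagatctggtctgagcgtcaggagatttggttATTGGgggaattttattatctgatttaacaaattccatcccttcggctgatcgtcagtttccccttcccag
Psmb8: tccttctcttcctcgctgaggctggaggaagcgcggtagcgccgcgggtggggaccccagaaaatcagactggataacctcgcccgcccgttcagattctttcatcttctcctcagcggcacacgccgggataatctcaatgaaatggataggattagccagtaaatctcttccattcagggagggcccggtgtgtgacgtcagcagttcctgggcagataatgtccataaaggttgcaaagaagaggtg
Psmb10: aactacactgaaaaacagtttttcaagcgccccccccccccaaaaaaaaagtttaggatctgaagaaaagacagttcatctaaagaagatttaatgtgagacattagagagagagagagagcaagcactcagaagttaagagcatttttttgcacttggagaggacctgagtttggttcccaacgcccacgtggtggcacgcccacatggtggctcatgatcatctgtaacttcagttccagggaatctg
Psmd9: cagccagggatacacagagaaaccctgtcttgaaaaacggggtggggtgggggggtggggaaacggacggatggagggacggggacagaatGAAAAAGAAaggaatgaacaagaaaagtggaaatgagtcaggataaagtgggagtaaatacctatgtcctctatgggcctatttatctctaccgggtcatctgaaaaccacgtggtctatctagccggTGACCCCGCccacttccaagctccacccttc

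Of the standard subunits, Psmb5 and Psmb6 held the antioxidant core close to the start, at bases -18 to -10 and -9 to -1. The window of Psmb7 held no antioxidant core and a CCAAT box at -71 to -67. Psmd9 held the antioxidant core at -31 to -23, and the windows of Psmb8 and Psmb10 held none of the motifs searched. In windows of 250 bases before to 50 bases after the start, searched on both strands, 8 of the 50 genes (16%) held TGACNNNGC, beside 12.5% of 21555 protein-coding genes. CCAAT was in 18 of the 50 (36%) beside 39.9%, and GAAANNGAA was in 8 (16%) beside 8.77%. A match is a run of letters and not a known binding site. The window of Psmb9 lies in an exon of Tap1, its neighbour on the opposite strand, and was not printed.

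Per kilobase of transcript, levels within the complex differed widely although its subunits are present in fixed numbers. Levels are given as CPM, each gene's counts relative to a library total that TMM corrected for composition, and as CPM per kilobase of the canonical transcript where genes are compared, averaged over the 15 libraries. In the alpha ring, Psma7 was highest at 79.8 CPM per kilobase and the testis form Psma8 lowest at 0.3. Without Psma8, the lowest alpha subunit was Psma2 at 8.4. Among the beta subunits, Psmb6 was highest at 60.8 and Psmb2 lowest at 5.2. The 19S ATPases ran from 67.2 for Psmc3 to 18.1 for Psmc2, and the non-ATPase subunits from 57.1 for Psmd2, a scaffold, to 13.5 for the deubiquitinase Psmd14. The choice of transcript moves these values, since long and short forms of the same gene were counted together.

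The induced catalytic subunits were present at lower levels per kilobase than Psmb6 and Psmb7, and Psmb5 lay close to Psmb10. Psmb10 had 10.1 CPM per kilobase, Psmb8 6.5 and Psmb9 3.3, beside 60.8 for Psmb6, 27.6 for Psmb7 and 12.0 for Psmb5. Among the activators and the inhibitor, Psme2 was highest at 46.4 and Psme2b lowest at 3.4, while Psme4, the nuclear activator PA200, had 22.6, Psme1 21.6, Psme3 11 and the inhibitor Psmf1 4.3. Psme2b is an intronless copy of Psme2, so reads may be split between them and both values are uncertain. The assembly chaperones ran from 10.5 for Psmg1 to 3.0 for Psmd10.

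The first comparison asked whether tetraploid cells differ from diploid cells. Of the 50 genes, 2 were changed between the 4n-whole and 2n-whole populations and both were higher in 4n-whole, beside 5.47% of the 17488 genes tested and 2.93% called higher (edgeR quasi-likelihood test with mouse as a term, Benjamini-Hochberg adjusted p under 0.05 over all genes tested). They were Psmd9, a chaperone in 19S assembly, and Psmd4, a 19S receptor for ubiquitin chains. With |log2FC| above 0.5 also required, as for the study's DEGs, 0 of the 50 passed beside 3.47% of all genes, and at an unadjusted p under 0.05 there were 13 of the 50, beside 20.4% of all genes. The fold changes were balanced around 0, with 25 positive and 25 negative and a median of 0.01 on the log2 scale, beside -0.01 over all genes tested.

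Psmd9 had 14.6, 11.6, 17.6 and 14.8 CPM in the 2n-whole libraries of mice 1 to 4 and 16.2, 16.5, 25.9 and 23.3 CPM in 4n-whole. In 4n-bottom it had 18.72, 16.43, 21.82 and 19.23 CPM and in 4n-top of mice 2 to 4 it had 15.3, 23.7 and 23.8 CPM. Every 4n-whole library was above the 2n-whole library of the same mouse, but the groups overlapped, since the 2n-whole library of mouse 3 exceeded the 4n-whole libraries of mice 1 and 2. The log2FC between 4n-whole and 2n-whole was 0.47 ± 0.13 (SE) with an adjusted p of 0.029 in edgeR.

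Psmd4 had 65.9, 67.4, 44.3 and 55.1 CPM in the 2n-whole libraries of mice 1 to 4 and 76.7, 80.1, 69.3 and 73.5 CPM in 4n-whole. In 4n-bottom it had 54.5, 71.0, 65.7 and 62.8 CPM, beside 4n-top values of 72.1, 64.3 and 81.7 CPM. The 4n-whole libraries were all above the 2n-whole libraries, whereas the 4n-bottom libraries of mice 1, 3 and 4 lay among them and that of mouse 2 lay above them. The log2FC was 0.37 ± 0.11 (SE) with an adjusted p of 0.045 in edgeR. Psmd4 shares exon bases with 3 lncRNAs annotated on the opposite strand.

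**Figure D1:**
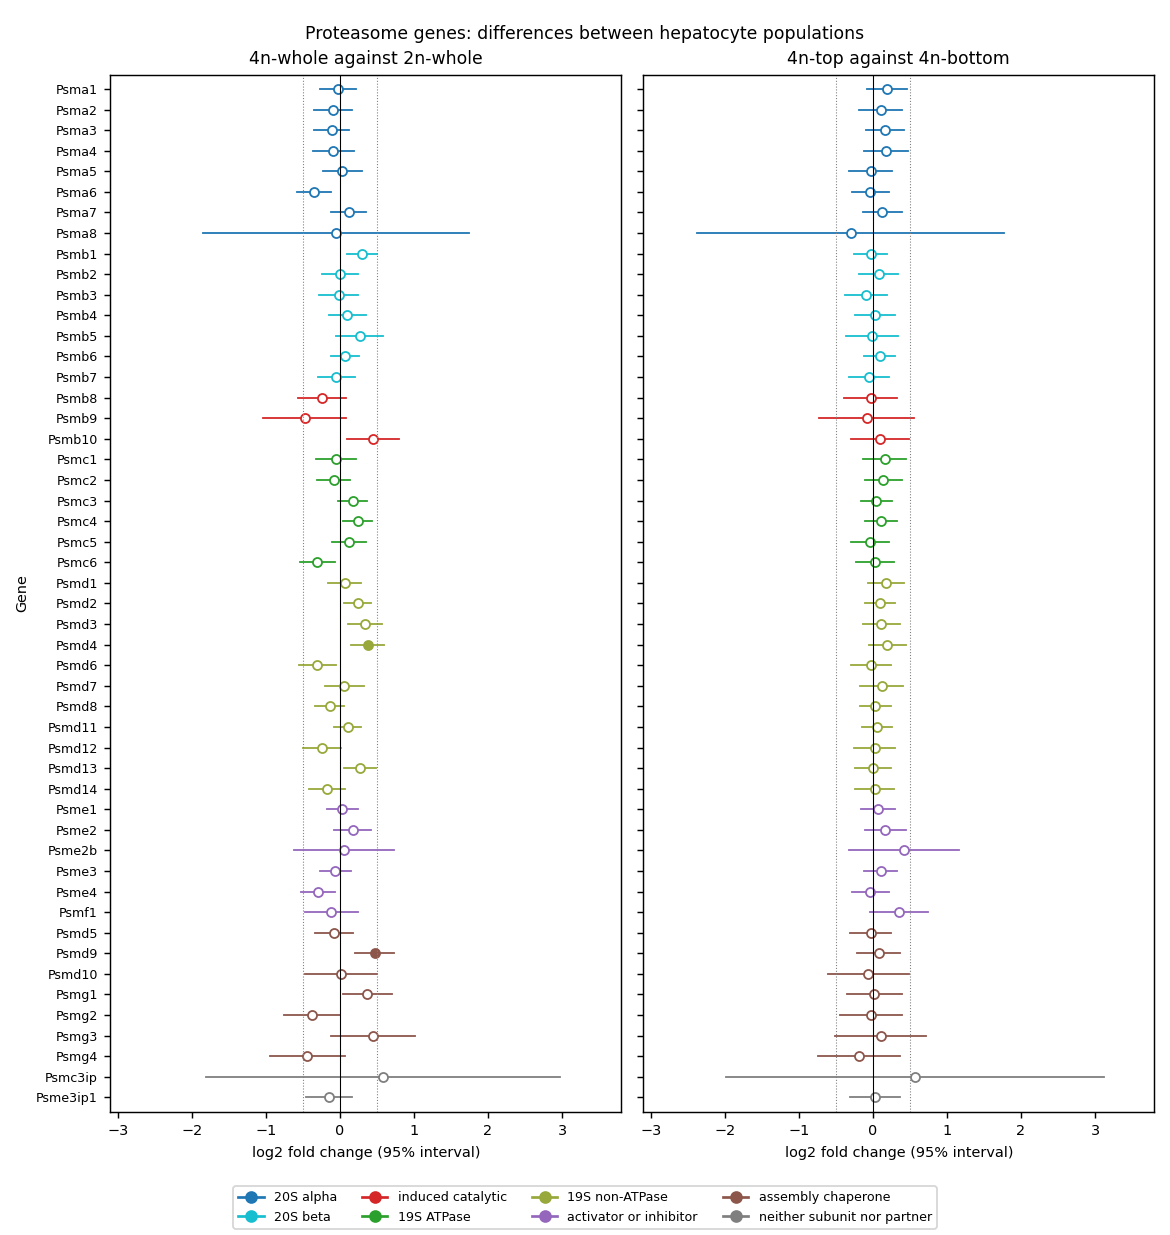
Log2 fold changes (points) with 95% intervals (lines) of the 50 proteasome genes in 4n-whole against 2n-whole (left) and 4n-top against 4n-bottom (right), coloured by class; filled points have an adjusted p under 0.05 in edgeR and dotted lines mark 0.5 and -0.5. Filled points are those of Psmd4 and Psmd9 on the left and none on the right, and the wide intervals belong to the sparsely counted Psma8 and Psmc3ip.

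Neither call was stable. Both were lost without mouse 2, without mouse 3, without mouse 4, without the mouse term and when only the 2 populations were fitted. Under these settings the log2FC was 0.29 to 0.41 for Psmd4 and 0.40 to 0.48 for Psmd9. The share of all genes called was 2.57%, 7.57%, 1.37%, 0.229% and 2.17% in the same order. Without mouse 3 the 2 genes that passed were Psma6 and Psmb10, and without mouse 1 there were 5, beside 6.32% of all genes. DESeq2 with the mouse term called 4 of the 50, Psmd4, Psmd9 and Psmb1 as higher and Psma6 as lower in 4n-whole, beside 8.18% of all genes tested. Adjusting the counts for mouse with ComBat-seq before DESeq2, the order of steps in the study, called 11, with 7 higher and 4 lower, beside 14.5% of all genes tested.

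Scaling moved the middle of the family as it moved all genes. The TMM factors were 0.891 to 0.965 in the 2n-whole libraries and 0.950 to 1.13 in the tetraploid ones, and with library totals alone the median log2FC was 0.21 for the 50 genes and 0.20 for all genes tested, and 11 of the 50 passed, all higher in 4n-whole, beside 14.8% of all genes. Fold changes also moved with base composition. Across the 48 subunits and partners, the rank correlation between the GC content of the transcript and the log2FC was 0.44, beside 0.22 across all genes tested, in genes that share the same libraries. The part of GC content in these differences was not tested.

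By class, the alpha ring had 0 of 8 genes called, with log2FC from -0.35 for Psma6 (adjusted p 0.058, edgeR) to 0.12 for Psma7. The 7 standard beta subunits had 0 called, and Psmb1, a non-catalytic subunit, had the highest log2FC, 0.30 (adjusted p 0.067, edgeR). Of the catalytic subunits, Psmb5 had a log2FC of 0.27, Psmb6 0.07 and Psmb7 -0.05. The 19S ATPases had 0 of 6 called, from -0.31 to 0.24, and the 19S non-ATPase subunits had 1 of 11 called, from -0.31 to 0.37.

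None of the 6 activator and inhibitor genes was called. Psme1 and Psme2, the subunits of the interferon-induced PA28 cap, had log2FC of 0.03 and 0.17, Psme2b 0.05, Psme3 -0.06, Psme4 -0.30 and Psmf1 -0.11. The assembly chaperones had 1 of 7 called. Among these, Psmg1 and Psmg2, which form a pair that starts the alpha ring, had log2FC of 0.37 and -0.38, and Psmg3 and Psmg4, a second pair, had 0.45 and -0.44, all without passing the test (adjusted p 0.185, 0.249, 0.397 and 0.338, edgeR).

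The intervals limit how large a difference could have gone undetected. The 95% interval of the log2FC lay within 0.5 of 0, or 1.41-fold, for 29 of the 50 genes (58%), beside 27.3% of all genes tested, which include many genes with fewer counts. Summed over the 32 subunits of the 20S core and 19S particle, without the induced ones, the level was 1900.6 ± 182 CPM (SD, n = 4) in 2n-whole, 1969 ± 147 (n = 4) in 4n-whole, 1953 ± 144 (n = 4) in 4n-bottom and 2065 ± 118 (n = 3) in 4n-top. The ranges overlapped in every pair of populations. Within mice 2 to 4, the sum was higher in 4n-top (2021, 1975 and 2198 CPM) than in 4n-bottom (1937, 1896 and 2156 CPM) of the same mouse. It was also higher than in 4n-whole of the same mouse, but in mouse 2 it was lower than in 2n-whole (2043 CPM). The order within mice was not tested. CPM gives shares of each library's counts, so RNA per cell was not measured.

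The second comparison asked whether tetraploid cells with a high and a low Hoechst peak differ. In edgeR, 0 of the 50 genes were changed between 4n-top and 4n-bottom, beside 0.0114% of all genes tested, and 0 had an unadjusted p under 0.05, beside 2.79%; DESeq2 with the mouse term also called 0. The log2FC had a median of 0.05, with 34 positive and 16 negative, beside 8776 and 8712 over all genes tested. The 95% interval lay within 0.5 of 0 for 42 of the 50 genes (84%), beside 35.0% of all genes tested. Psmd4 and Psmd9 had log2FC of 0.20 and 0.08, and the inhibitor Psmf1 had 0.35 (95% interval -0.04 to 0.74).

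The fractions were also compared with 2n-whole, which both comparisons share as control with each other and with the first one. Between 4n-bottom and 2n-whole, 0 of the 50 genes were changed in edgeR, beside 0.492% of all genes tested, with 4 at an unadjusted p under 0.05, beside 10.2%. Between 4n-top and 2n-whole, 0 were changed beside 1.06% of all genes tested, with 8 at an unadjusted p under 0.05, beside 11.3%. The log2FC was positive for 27 and negative for 23 genes in 4n-bottom, beside 8859 and 8629 over all genes tested, and positive for 35 and negative for 15 in 4n-top, beside 8751 and 8737. These genes share their libraries, and the balance of signs was not tested. With the mouse term, DESeq2 called 1 gene in 4n-bottom, Psmb1, which was higher there, and 0 genes in 4n-top cells. The interval lay within 0.5 of 0 for 36 of the 50 genes (72%) in 4n-bottom and for 32 (64%) in 4n-top.

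Psmb1 had 52.6, 64.1, 53.2 and 59.8 CPM in 2n-whole, 55.6, 73.1, 69.8 and 87.8 CPM in 4n-whole, against 66.2, 70.7, 76.4 and 89.0 CPM for 4n-bottom libraries and 76.0, 74.5 and 81.5 CPM for 4n-top libraries. The libraries of 4n-bottom and 4n-top were all above those of 2n-whole. Its log2FC was 0.39 ± 0.10 (SE) in 4n-bottom and 0.36 ± 0.11 (SE) in 4n-top, each against 2n-whole, with adjusted p of 0.074 and 0.133 in edgeR. Psmd9 had 0.39 and 0.46 in these comparisons (adjusted p 0.256 and 0.135, edgeR), and Psmd4 had 0.14 and 0.33 (adjusted p 0.726 and 0.261, edgeR).

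The induced catalytic subunits did not pass the test in any comparison with all mice and TMM scaling. Between 4n-whole and 2n-whole Psmb10 passed without mouse 3 (log2FC 0.64, adjusted p 0.025, edgeR) and with library totals (log2FC 0.66, adjusted p 0.017, edgeR). In that comparison with all mice, Psmb8 had a log2FC of -0.24 (95% interval -0.57 to 0.08), Psmb9 -0.48 (-1.04 to 0.09) and Psmb10 0.45 (0.09 to 0.80), with adjusted p of 0.418, 0.344 and 0.133 in edgeR. Between 4n-top and 4n-bottom the log2FC were -0.03, -0.08 and 0.10. Within each population, their levels varied between mice.

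Psmb9 had 5.37, 6.85, 2.57 and 6.55 CPM in the 2n-whole libraries of mice 1 to 4, 3.35, 7.50, 1.81 and 3.86 CPM in 4n-whole, 6.00, 7.56, 1.00 and 2.78 CPM in their 4n-bottom libraries, and for mice 2 to 4 it had 7.66, 1.56 and 2.44 CPM in 4n-top. In each population mouse 2 was highest and mouse 3 lowest. Psmb9 shares 743 exon bases with Tap1 on the opposite strand. The strand setting of the counting is not given in the sources used here, so the counts of these neighbours may not be fully separate. The same limit holds for other members, such as Psmb7, which shares 2817 exon bases with Nek6, and Psme1, which shares 2192 with Emc9.

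Psmb8 had 12.9, 16.7, 7.44 and 11.5 CPM in 2n-whole, 11.1, 11.1, 7.38 and 10.2 CPM in 4n-whole, 10.3, 17.5, 6.89 and 10.1 CPM in 4n-bottom, whereas its 4n-top values were 13.4, 7.46 and 10.7 CPM. Psmb10 had 10.7, 10.9, 9.36 and 12.2 CPM in 2n-whole, 13.1, 22.9, 8.45 and 16.97 CPM in 4n-whole, 14.0, 11.9, 9.97 and 15.8 CPM in 4n-bottom, whereas its 4n-top values were 14.96, 8.91 and 19.03 CPM. Mouse 3 was lowest in every population for both genes.

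**Figure D2:**
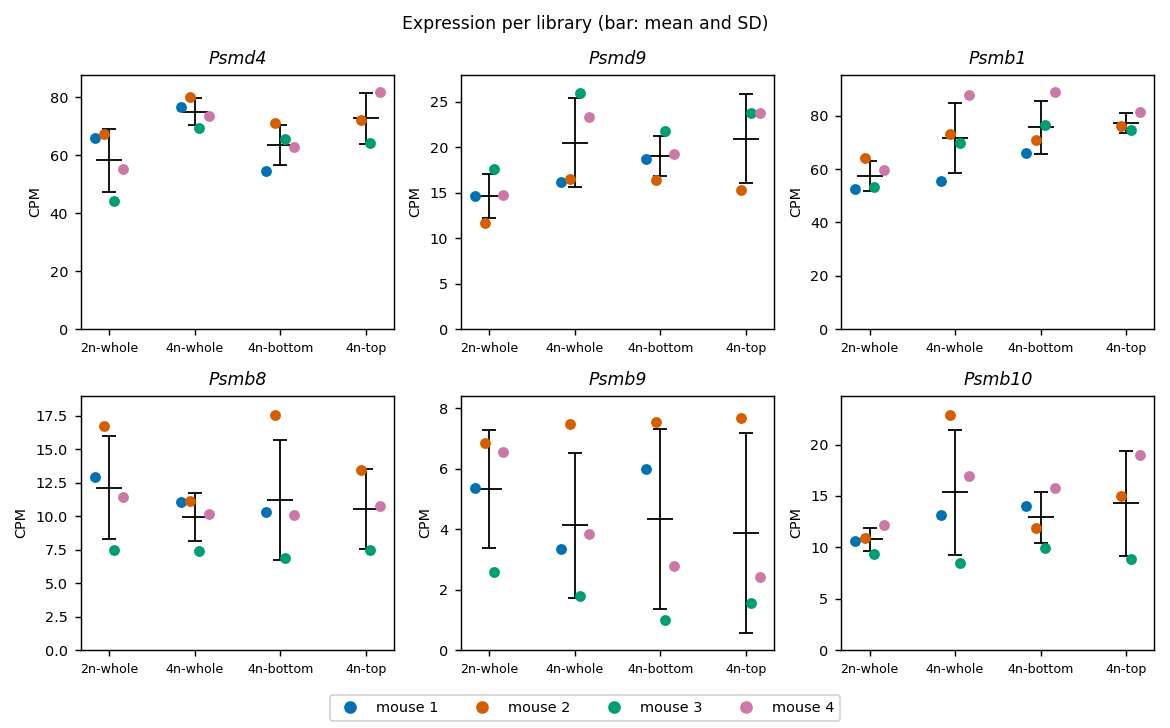
CPM per library of Psmd4, Psmd9, Psmb1, Psmb8, Psmb9 and Psmb10 in the 4 populations, coloured by mouse, with the mean and SD of each population in black. Psmd4 and Psmd9 lie higher in 4n-whole than in 2n-whole of the same mouse, and mouse 3 is lowest in every population for Psmb8, Psmb9 and Psmb10.

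The difference between mice was then tested in the same model, a test chosen after these values had been seen. The mouse term was called for 9 of the 50 genes (18%), beside 19.2% of all genes tested (adjusted p under 0.05, edgeR), so that the family as a whole was near the background. The 9 were Psmb8, Psmb9, Psmb10, Psme1, Psma6, Psmb1, Psmb6, Psmd9 and Psmg1. Against mouse 1 and with population in the model, Psmb9 was 0.68 higher on the log2 scale in mouse 2, and -1.47 in mouse 3 and -0.33 in mouse 4 (adjusted p 2.6e-05, edgeR). Psmb8 was at 0.37, -0.63 and -0.10 (adjusted p 3.5e-04, edgeR), and Psmb10 at 0.21, -0.47 and 0.31 (adjusted p 0.0079, edgeR). The range between the highest and lowest mouse had a median of 1.00 on the log2 scale over the 3 induced subunits, 0.30 over the other 47 genes and 0.67 over all genes tested.

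**Figure D3:**
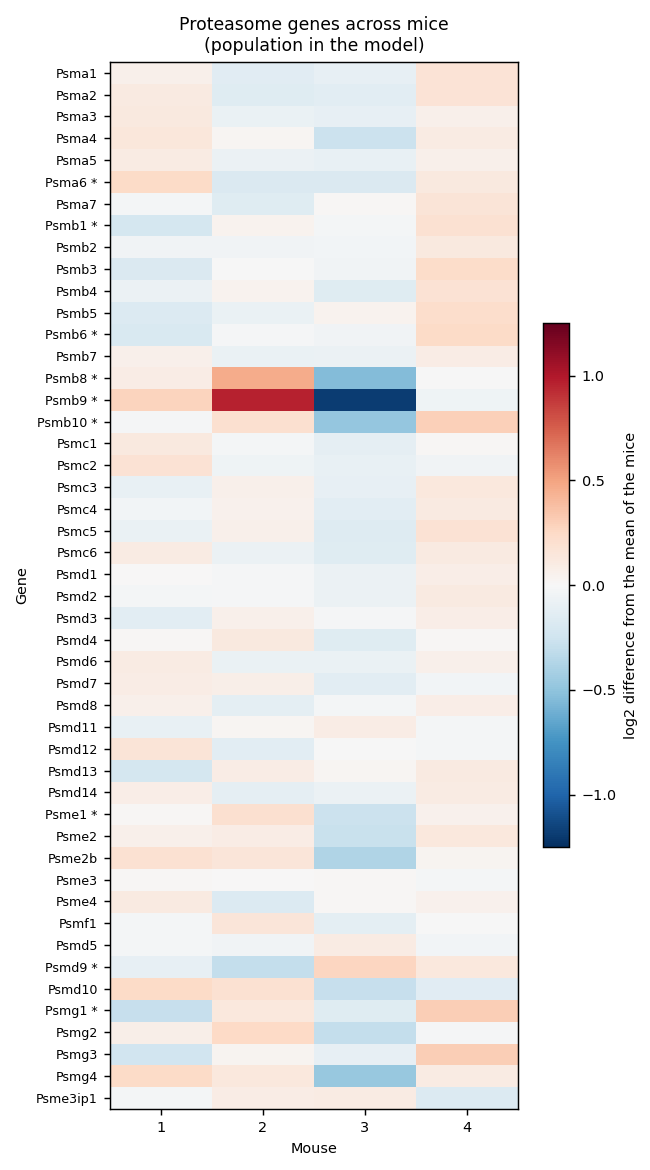
Log2 difference of each proteasome gene from the mean of the 4 mice, with population in the model; rows are genes without the sparsely counted Psma8 and Psmc3ip, columns are mice, red is higher and blue lower, and an asterisk marks an adjusted p under 0.05 for the mouse term in edgeR. The strongest colours are those of Psmb8 and Psmb9, red in mouse 2 and blue in mouse 3.

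Psme1 was lowest in mouse 3 in every population (62.2 CPM in 2n-whole, 77.6 in 4n-whole, 79.5 in 4n-bottom and 83.2 in 4n-top), with an adjusted p of 0.0092 for the mouse term in edgeR, and its partner Psme2 had 0.051. Of 19 listed interferon and antigen processing genes, the mouse term was called for 7, beside the 19.2% of all genes given above, and the range between mice had a median of 0.36 on the log2 scale over the 19. Among these were Irf1, Tap1, Tap2, Calr, Pdia3 and H2-D1. Mouse 3 was lowest for 6 of the 7 and mouse 1 for H2-D1, an MHC class I heavy chain, while the highest was mouse 2 for 4 and mouse 1 for 3. Irf1, an interferon-response factor, had 55.6 to 103 CPM in the libraries of mouse 2 and 20.5 to 33.9 CPM in all others (adjusted p 3.4e-11 for the mouse term, edgeR). Tap1, a peptide transporter subunit, had 10.1 to 12.1 CPM in mouse 3 and 12.9 to 24.7 CPM in the others. Calr and Pdia3, chaperones of the endoplasmic reticulum, were highest in mouse 1, with log2 differences from it of -0.41, -1.09 and -0.49 for Calr and -0.57, -0.92 and -0.33 for Pdia3 in mice 2 to 4. These genes were named after their values had been seen.

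Among marker genes tested, the mouse term was called for 6 of 10 hepatocyte markers, 6 of 8 endothelial markers and 1 of 5 cholangiocyte markers, beside 19.2% of all genes tested. It was called for 0 of 7 macrophage, 0 of 5 stellate and 0 of 1 lymphocyte markers in edgeR. Of these, 3, 0 and 0 had an unadjusted p under 0.05, beside 5405 of the 17488 genes tested. The endothelial markers summed to 15.7 to 29.5 CPM in mouse 2, 14.0 to 17.7 in mouse 1 and 4.96 to 14.2 in mice 3 and 4. Lymphocyte markers summed to 0 to 1.18 CPM, with each of the 8 genes at 0 in at least 1 library, and macrophage markers to 0.547 to 8.62 CPM, with each of the 8 likewise at 0 in at least 1 library. Stellate markers summed to 1.77 to 6.29 CPM. The 10 hepatocyte markers summed to 80622 to 110132 CPM. The part of other cells in the values of the induced subunits was not tested, and fewer cells of a type cannot be told apart from less RNA per cell. The labels list no batch, and mouse cannot be told apart from any day of preparation tied to it.

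The replacement of standard by induced subunits was followed as the log2 ratio of CPM within each library, which needs no scaling between libraries. None of the 12 comparisons, 3 ratios in 4 pairs of populations, passed (two-sided exact permutation tests, lowest adjusted p 0.686). With 4 libraries against 4, the smallest p these tests allow is 0.0286. With 3 libraries of 4n-top against 4, they allow no p under 0.05. After adjustment over the 12 tests, no ratio could pass even with every test at its smallest p. These tests therefore could not find a difference. They also did not pair libraries of the same mouse, so the spread they used includes that between mice. Psmb8/Psmb5 was -0.60 ± 0.78 (SD, n = 4) in 2n-whole, -1.11 ± 0.38 (n = 4) in 4n-whole, -0.96 ± 0.72 (n = 4) in 4n-bottom and -1.05 ± 0.43 (n = 3) in 4n-top. Psmb9/Psmb6 was -3.53 ± 0.56, -4.05 ± 0.89, -4.20 ± 1.36 and -4.47 ± 1.197, and Psmb10/Psmb7 was -1.58 ± 0.20, -1.10 ± 0.77, -1.36 ± 0.24 and -1.20 ± 0.45 in the same order. The ratio Psmb9/Psmb6 averaged -3.05 in mouse 2 and -5.15 in mouse 3.

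**Figure D4:**
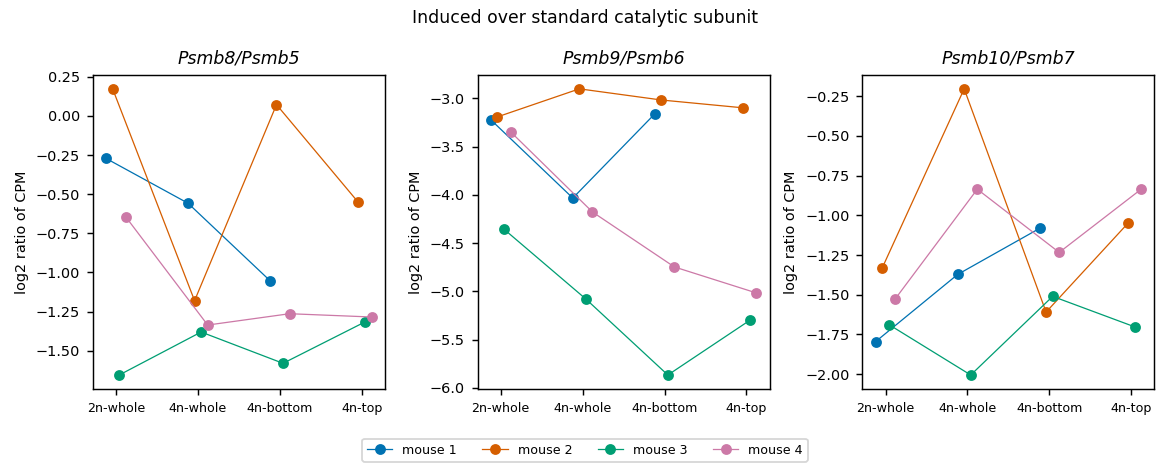
Log2 ratio of CPM of each induced catalytic subunit over the standard subunit of the same position, per library, with lines joining the libraries of each mouse across the populations. Mouse 3 has the lowest and mouse 2 the highest Psmb9/Psmb6 in every population, although mice 1 and 2 are nearly level in 2n-whole.

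The variation left after population and mouse was compared between subunits. With both removed, the 31 genes of the 20S core and 19S particle, without Psma8, had a median pairwise correlation of 0.30 (465 pairs, from -0.94 to 0.92) over the 15 libraries, beside 0 over all pairs of tested genes. The 19S ATPases had a median of 0.46, and the induced subunits had -0.18 with the core. Of the 31 genes, 28 had a positive median correlation with the others, and Psmb5, Psmd3 and Psma1 had -0.36, -0.07 and -0.02. Psme1 and Psme2 had 0.75, whereas Psmb8 with Psmb10 had -0.84, Psmb5 with Psmb8 -0.75 and Psmb5 with Psmb6 -0.60. These genes share library depth and base composition, so the values are descriptions. With population and mouse removed, little free variation is left in 15 libraries, so the values of single pairs are imprecise. The pairs of all tested genes include many genes with fewer counts and were not matched by level.

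Of 31 other genes of the proteasome and ubiquitin pathway, 30 were tested, and 3 were higher and 2 lower in 4n-whole than in 2n-whole, beside the 5.47% of all genes given above. Among these, Sem1, a small 19S subunit that lacks a Psm symbol, rose by 0.48 on the log2 scale and Ddi2, the protease that activates NRF1, by 0.29 (adjusted p 0.033 and 0.027, edgeR). Txnl1, a thioredoxin bound to the 19S particle, fell by 0.59, and Akirin2, which carries the proteasome into the nucleus, fell by 0.52 (adjusted p 0.0060 and 0.030, edgeR). These calls are given from the main fit only, without the alternative settings. Nfe2l1, encoding NRF1 itself, had a log2FC of 0.31 with an adjusted p of 0.054. None of the 30 passed in the other comparisons, in which 1, 5 and 7 had an unadjusted p under 0.05 between 4n-top and 4n-bottom, 4n-bottom and 2n-whole, and 4n-top and 2n-whole, in that order, beside 2.79%, 10.2% and 11.3% of all genes tested.

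Of the 19 antigen processing and interferon genes, 2 were lower in 4n-whole than in 2n-whole and none higher (edgeR), beside 2.54% of all genes tested that were lower and 2.93% that were higher, and 4 had an unadjusted p under 0.05, beside 20.4% of all genes. B2m, the light chain of MHC class I, had 685 to 864 CPM in 2n-whole and 317 to 610 CPM in 4n-whole, and fell by 0.87 on the log2 scale (adjusted p 3.5e-04, edgeR). Irf2, an interferon-response factor, fell by 0.38 (adjusted p 0.024, edgeR). The calls of B2m and Irf2 are likewise given from the main fit only. The cholangiocyte markers Spp1 and Sox9 were lower in the same comparison, with log2FC of -2.81 and -0.62, and the summed cholangiocyte markers were 35.0 to 47.8 CPM in 2n-whole and 16.6 to 31.2 CPM in 4n-whole. Their part in these differences was not tested.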

How the data were processed

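RNA from Hoechst-sorted hepatocytes was made into libraries with the SMART-Seq Stranded kit from 20 ng of RNA. Per the labels, the submitters' processing notes name STAR 2.7.11a, featureCounts (Subread) and GRCm39. The annotation, the strand setting and the handling of read pairs are not given in the sources used here. The deposited table holds raw counts per gene by the authors, 22049498 to 42096421 per library.

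Counts were fitted in edgeR 4.0.16 (R 4.3.3; TMM, filterByExpr, quasi-likelihood F test) with population and mouse over all 15 libraries, and p-values were adjusted over the 17488 genes tested. DESeq2 and ComBat-seq used the same genes. The fit was also run on simulated counts with known changes, and the outcome is not given here. Subject numbers in the labels name the animal, and residuals of the same mouse correlated at 0.0845 to 0.206. Ratios used exact permutation tests in SciPy 1.17.1, without pairing by mouse in the main tests. Alternatives were DESeq2 1.42.0, ComBat-seq (sva 3.50.0), other scaling and filters, no mouse term, the 2 compared populations only and leaving out each mouse.

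The genes and lists were chosen with earlier results of these data known. Named were the catalytic subunits, Psme1 to Psme4, Psmf1, Psmg1 to Psmg4, members with an adjusted p under 0.05, the highest and lowest per kilobase of each class, symbols under the minimum, and listed pathway genes that passed, of which 1 is not reported here. Genes named outside this rule were chosen after their values were seen. Transcript lengths, GC content and sequences came from GENCODE M39 and GRCm39. SDs are over mice, and the SEs and 95% intervals of log2FC come from the quasi-likelihood fit, which includes the spread between libraries.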

Additional observations from a re-analysis of the deposited data

Results flagged for a closer look

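In 159 groups of 4 libraries checked, 11 had a library set apart from the other 3 by more than Dixon's 95% limit, where chance gives about 1 in 20, or 7.95. The gap of that library to its nearest neighbour is given as a share of the group's range. Of these 11, 4 fell in the 2n-whole library of mouse 3, which was low in Psma4 (0.848), Psmd6 (0.935), Psme2b (0.853) and the log2 ratio Psmb9/Psmb6 (0.867). In 4n-whole, mouse 4 was low in Psmc3ip (0.919, no counts) and high in Psmd2 (0.850), and mouse 2 was low in Psmd7 (0.855). In 4n-bottom, mouse 4 was high in Psma5 (0.955) and Psmg1 (0.841), mouse 3 was low in Psmc2 (0.942) and mouse 1 was low in Psmg3 (0.894).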

How the results depend on the processing

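Between 4n-whole and 2n-whole, where 2 of the 50 genes passed, the count was 0 with |log2FC| above 0.5 required, 0 without the replicate block for mouse, 0 with only the compared populations, 11 with library totals without TMM (added after the data were seen), 4 with DESeq2 with the block and 11 with ComBat-seq then DESeq2. It was 3 with DESeq2 size factors and 3 without a filter, beside 5.53% and 2.99% of all genes, and leaving out 1 mouse gave 0 to 5. The share of all genes called was 0.229% without the block, 2.17% with the compared populations, 14.8% with library totals, 8.18% with DESeq2, 14.5% with ComBat-seq and 1.37% to 7.57% with 1 mouse left out. Between 4n-bottom and 2n-whole, with 0 passing, the count was 1 with library totals, 1 with DESeq2, 2 with ComBat-seq then DESeq2 (Psmb1 and Psmd9) and 0 to 1 when 1 mouse was left out (Psmb1, without mouse 2), beside 0.755%, 1.01%, 2.97% and 0.261% to 0.663% of all genes. Between 4n-top and 2n-whole, with 0 passing, it was 5 with library totals, 1 with only the compared populations, 0 with DESeq2 and 5 with ComBat-seq then DESeq2, beside 3.41%, 3.01%, 2.33% and 5.62% of all genes. Between 4n-top and 4n-bottom it was 0 under each alternative. With mice paired, the Psmb9/Psmb6 difference between 4n-top and 4n-bottom turned from -0.273 to 0.0721, which is also its value without mouse 1, the mouse without a 4n-top library, and leaving out 1 mouse gave -0.566 to 0.0721. No ratio passed with unscaled counts, and the paired tests and those without 1 mouse could not pass, since the smallest p they allow is 0.1 to 0.25. The main tests and those with unscaled counts likewise could not pass after adjustment, even with every test at its smallest p. The causes of the other shifts were not tested. Precision was limited by 3 or 4 mice per population, and by counts for Psma8, Psmc3ip and Psme2b.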
